A study of Mus musculus with 12 samples.

Results

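The 7 genes described here are the 3 E proteins, Tcf3, Tcf4 and Tcf12, and the 4 Id inhibitors, Id1, Id2, Id3 and Id4. Every probe set whose annotation names exactly 1 of these genes was taken, whatever its signal. These are 7 of the 18193 genes that at least 1 probe set names alone. They have 22 of the 45037 probe sets that are not controls, 14 for the E proteins (3 for Tcf3, 6 for Tcf4 and 5 for Tcf12) and 8 for the Id inhibitors (1 for Id1, 3 for Id2, 1 for Id3 and 3 for Id4). The symbols Tcf3 and Tcf4 stand here for the genes that encode E2A and E2-2, and not for the Wnt pathway genes Tcf7l1 and Tcf7l2 that carried similar names; the Entrez identifiers of all 22 probe sets matched these symbols in RefSeq. Whole testis RNA was taken at postnatal day 7, from mice of a mixed C57BL/6 and 129S5/SvEvBrd background. There were 3 groups of 4 arrays, which were wild type, Sohlh1-/- and Sohlh2-/-, and each array carried RNA pooled from 3 testes, each of another animal. Both knockouts are given in the labels as homozygous, with no Cre or transgene named, and the sources used here do not give how the alleles were made. The 4 wild-type arrays are the controls of both comparisons.

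E proteins are broadly made basic helix-loop-helix transcription factors that pair with tissue-restricted basic helix-loop-helix factors and bind the E box, a short DNA motif. Id proteins have the helix-loop-helix dimerisation region but lack the basic DNA-binding region, so a dimer of an Id protein and an E protein does not bind DNA. In many tissues Id genes are switched on by bone morphogenetic protein (BMP) signalling through Smad proteins. Sohlh1 and Sohlh2 are basic helix-loop-helix factors of spermatogonia, the dividing germ cells of the testis, and are needed for their differentiation. In the mouse testis Id4 is known as a marker of the most stem-like spermatogonia.

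Promoter sequence is shown for 3 of the Id genes, because Id4 is the member whose signal changed and because Id2 and Id3 are the pair whose brightest probe sets varied most closely together from array to array. Each window is the 250 bases before the start of the RefSeq gene in build GRCm38.p6, 5′ to 3′ on the gene's strand. The windows are chr13:48260866-48261115 (plus strand) for Id4, chr12:25096093-25096342 (minus strand) for Id2 and chr4:136143572-136143821 (plus strand) for Id3. Capitals mark 3 motifs searched on both strands, which were the E box CANNTG, the CCAAT box (ATTGG on the other strand) and the palindrome GGCGCC, a sequence known to be bound by BMP-activated Smads. No marked sites overlap.
Id4: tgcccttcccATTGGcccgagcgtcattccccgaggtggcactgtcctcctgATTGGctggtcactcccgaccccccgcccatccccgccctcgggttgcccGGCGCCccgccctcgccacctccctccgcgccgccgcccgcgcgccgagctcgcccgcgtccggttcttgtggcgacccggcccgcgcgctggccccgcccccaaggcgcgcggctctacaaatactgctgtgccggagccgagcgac
Id2: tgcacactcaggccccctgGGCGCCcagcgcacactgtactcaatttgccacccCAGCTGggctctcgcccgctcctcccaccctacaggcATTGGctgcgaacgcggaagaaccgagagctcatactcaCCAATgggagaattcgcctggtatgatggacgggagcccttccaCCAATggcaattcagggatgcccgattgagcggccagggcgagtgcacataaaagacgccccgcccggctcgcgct
Id3: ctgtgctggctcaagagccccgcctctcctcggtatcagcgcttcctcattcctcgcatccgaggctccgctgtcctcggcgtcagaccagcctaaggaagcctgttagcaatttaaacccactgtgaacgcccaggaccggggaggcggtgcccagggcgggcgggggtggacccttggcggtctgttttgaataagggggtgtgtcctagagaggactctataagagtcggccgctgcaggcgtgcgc
The Id4 window held no CANNTG, 2 CCAAT boxes and 1 GGCGCC, and its GC content was 75.6%. The Id2 window held 1 CANNTG, with the letters CAGCTG, 3 CCAAT boxes and 1 GGCGCC. The Id3 window held none of the 3 motifs, and both it and the Id2 window had a GC content of 62.8%. Among 32841 RefSeq windows of the same length, 66.2% held at least 1 CANNTG, 33.9% a CCAAT box and 9.59% a GGCGCC, and the median GC content was 52.4%. The Tcf3 window held 1 CANNTG, and the 3 windows of Tcf12 held 1, 1 and 0. A match is a run of letters and shows no binding.

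The values were MAS5 signals, which are intensities on a linear scale, with a trimmed mean of 500 on every array and medians from 76.6 to 90.7. Signal of Sohlh1 and Sohlh2 was checked first. In wild type Sohlh1 gave 1125 to 1233, and in the group labelled Sohlh1 knockout it gave 50.1 to 104 on arrays 2, 3 and 4 but 595 on array 5. In wild type Sohlh2 gave 885 to 1200, and in the group labelled Sohlh2 knockout it gave 73.2 to 157 on arrays 3-1, 4 and 5 but 1847 on array 1. The array labelled Sohlh1 knockout 5 and the array labelled Sohlh2 knockout 1 therefore went against their labels, and on them the other targeted gene was low, at 94.4 for Sohlh2 on the former and 126 for Sohlh1 on the latter. They were kept in their labelled groups, and results are given without them where this changes a call. Control probe sets for the 3' and 5' ends of Gapdh, a measure of RNA integrity, gave a ratio of 0.744 to 0.818 on 10 arrays, 1.17 on the array labelled Sohlh1 knockout 2 and 1.63 on the array labelled Sohlh2 knockout 1. Whole testis holds germ cells and somatic cells, and a lower signal from fewer cells of a type cannot be told apart from less RNA per cell.

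Id4 was the only one of the 7 genes whose signal changed in either knockout. Its brightest probe set, 1423259_at, was higher in both knockouts, at 176% of the wild-type mean in the Sohlh1 knockout and 177% in the Sohlh2 knockout. No probe set of an E protein, and none of Id1, Id2 or Id3, passed the threshold, which was an adjusted p under 0.05 in limma over all 28694 probe sets tested. A probe set was tested if its signal was above 48.6 on at least 4 arrays, which 21 of the 22 probe sets did. The exception was 1416725_at of Tcf4, at 3.11 to 60.0. In the Sohlh1 comparison 1 of the 21 probe sets was called, against 2.09% of all probe sets tested, and it was higher, against 0.707% called in that direction and 1.38% called lower. In the Sohlh2 comparison 2 of the 21 were called, against 1.55% of all, and both were Id4 probe sets that were higher, against 0.606% in that direction and 0.944% called lower. The median log2 fold change of the 21 probe sets was 0.10 in the Sohlh1 comparison and 0.04 in the Sohlh2 comparison, and that of all probe sets tested was -0.0027 and -0.0038. At an unadjusted p under 0.05 there were 4 of 21 in the Sohlh1 comparison, where 14.9% of all probe sets were, and 5 of 21 in the Sohlh2 comparison, where 13.5% were. All fold changes are on the scale of log2(signal + 14.2), which draws those of dim probe sets towards 0.

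**Figure D1:**
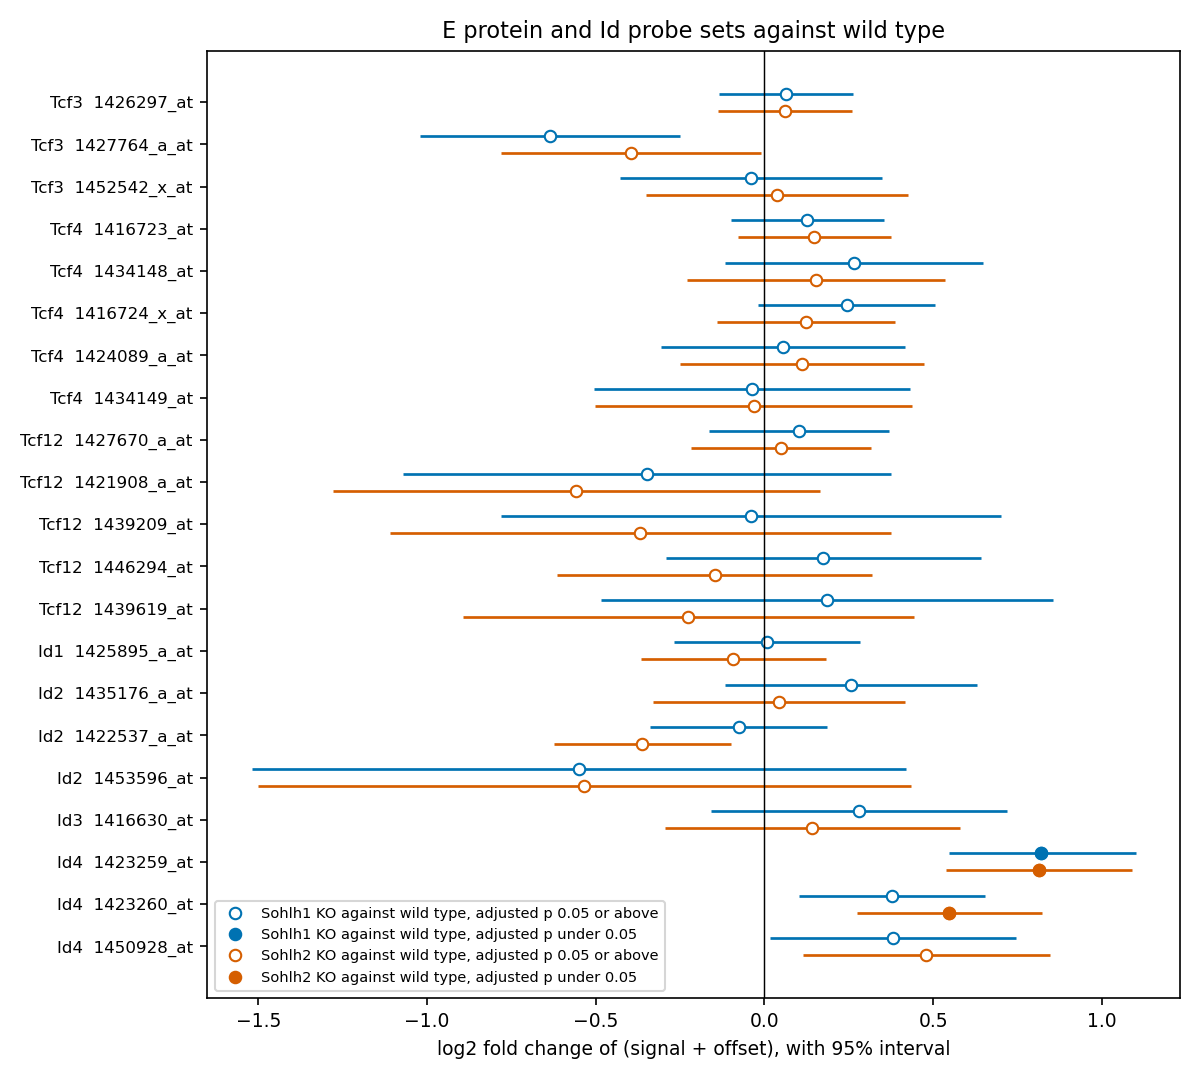
Log2 fold change against wild type (horizontal axis, with the 95% interval of the limma fit) for each of the 21 probe sets tested, in the Sohlh1 knockout (blue) and the Sohlh2 knockout (orange). Filled points have an adjusted p under 0.05 and are all Id4 probe sets, at 0.82 and 0.81 for 1423259_at and 0.55 for 1423260_at for the Sohlh2 knockout. Most of the other intervals include 0.

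Id4 encodes an Id protein, an inhibitor of E protein dimers, and its probe set 1423259_at separated every knockout array from every wild-type array. Its signals were 1042, 880.2, 861 and 724 on the wild-type arrays 3, 4, 5 and 6. In the group labelled Sohlh1 knockout, arrays 2, 3, 4 and 5 gave 1498, 1608, 1516 and 1568. In the group labelled Sohlh2 knockout, arrays 1, 3-1, 4 and 5 gave 1230.5, 1850.1, 1625 and 1517; all later values are in these orders. The highest wild-type array lay below the lowest array of each knockout, and the lowest knockout array was the one labelled Sohlh2 knockout 1. All arrays of the group lay above all wild-type arrays for 1 of the 21 probe sets in the Sohlh1 comparison, against 5.07% of all tested, and for 2 of the 21 in the Sohlh2 comparison, against 4.14% of all. The means were 877 ± 130 in wild type, 1548 ± 50.1 in the Sohlh1 knockout and 1556 ± 257 in the Sohlh2 knockout (SD, n = 4 arrays each). In the Sohlh1 comparison the log2 fold change was 0.82 (SE 0.128, 95% interval 0.546 to 1.10, limma adjusted p = 0.00356), and the probe set ranked 113 of 28694 by p. In the Sohlh2 comparison it was 0.81 (SE 0.128, 95% interval 0.539 to 1.09, limma adjusted p = 0.00457), with a rank of 98. The call held under all 31 alternative settings in both comparisons. In the setting with the mean of probe sets per gene, it was the mean over the Id4 probe sets that was called. When the 2 arrays that went against their labels and the array labelled Sohlh1 knockout 2 were left out, the log2 fold change was 0.83 in the Sohlh1 comparison and 0.92 in the Sohlh2 comparison.

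The other Id4 probe sets had higher means in both knockouts than in wild type, with smaller fold changes, and 1 of them was called, in the Sohlh2 comparison. Probe set 1423260_at gave 321, 247, 251 and 262 on the wild-type arrays 3, 4, 5 and 6. It gave 369, 360.3, 370.4 and 317 in the group labelled Sohlh1 knockout (arrays 2, 3, 4 and 5), and 426, 348, 450.3 and 382 in the group labelled Sohlh2 knockout (arrays 1, 3-1, 4 and 5). All Sohlh2 knockout arrays lay above all wild-type arrays, while the array labelled Sohlh1 knockout 5 fell just below wild type 3. The means were 270.2 ± 34.2, 354 ± 25.1 and 401 ± 45.8 (SD, n = 4 each). The rise in the Sohlh2 comparison was 0.55 on the log2 scale (SE 0.129, limma adjusted p = 0.0488), and this call was lost in 22 of 29 alternative settings, among them 11 of the 12 fits that left out 1 array; without the array labelled Sohlh2 knockout 1 and the other doubted arrays the value was 0.52 with an adjusted p of 0.0706. In the Sohlh1 comparison the value was 0.38 (SE 0.129, limma adjusted p = 0.170), which did not pass.

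Probe set 1450928_at of Id4 gave 298, 263, 215 and 173 on the wild-type arrays, 358, 320, 251 and 310 in the group labelled Sohlh1 knockout, and 388, 306, 339 and 295 in that labelled Sohlh2 knockout. Wild type 3 lay within the range of both knockouts. The log2 fold changes were 0.38 in the Sohlh1 comparison (limma adjusted p = 0.311) and 0.48 in the Sohlh2 comparison (limma adjusted p = 0.218), and all 4 arrays of each knockout were above the wild-type mean. The 2 highest values, 358 and 388, were those of the 2 arrays of high 3' to 5' ratio, whose part in these values was not tested. The Id4 probe sets tracked the groups and agreed less within them: as a description over 12 arrays, the 3 correlations between them were 0.705 to 0.767, and -0.0011 to 0.44 once each array was set against its group's mean.

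**Figure D2:**
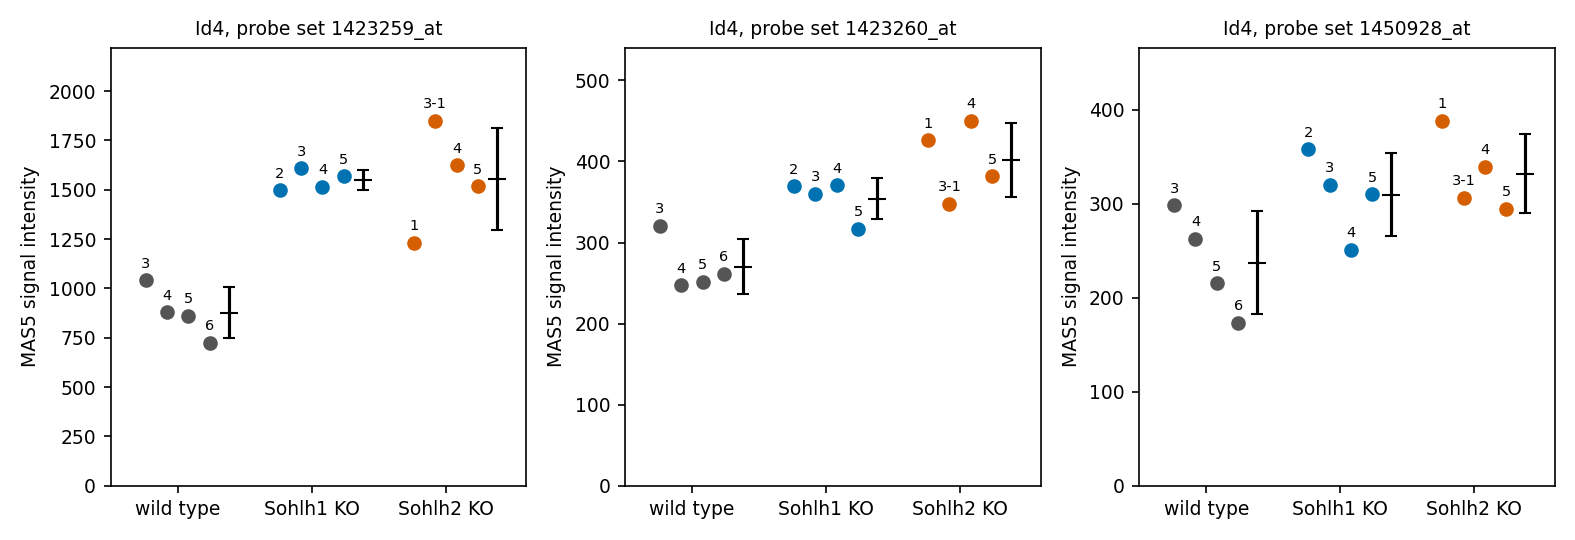
MAS5 signal intensity (vertical axis, linear, from 0) of the 3 Id4 probe sets on each array, with the array's number beside its point; bars give the mean and SD of the 4 arrays of a group. For 1423259_at the wild-type arrays lie between 724 and 1042 and the knockout arrays between 1230.5 and 1850.1; for 1450928_at wild type 3 lies within the range of the knockouts.

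Id1, Id2 and Id3, the Id genes most often described as targets of BMP signalling, showed no change between groups that passed the threshold. The spread of their brightest probe sets was widest in wild type, with an SD of 16.4%, 29.6% and 30% of the mean for Id1, Id2 and Id3. The wild-type arrays 5 and 6 were the lowest wild-type arrays for the brightest probe set of each of the 3 genes. The single Id1 probe set, 1425895_a_at, gave 1585, 1619.8, 1160.5 and 1261 on the wild-type arrays, 1303, 1573, 1573 and 1189.9 in the group labelled Sohlh1 knockout, and 1338, 1169, 1357 and 1365 in that labelled Sohlh2 knockout. The groups overlapped, and all 4 arrays of the Sohlh2 group lay below the wild-type mean of 1407. The log2 fold change was 0.0075 in the Sohlh1 comparison (95% interval -0.267 to 0.282, limma adjusted p = 0.986) and -0.09 in the Sohlh2 comparison (limma adjusted p = 0.802).

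Id2 has 3 probe sets, and they did not move alike. The brightest, 1435176_a_at, gave 3032, 2883, 1706 and 1807 on the wild-type arrays, 3113, 2503, 3027 and 2336 in the group labelled Sohlh1 knockout, and 2589.8, 2037, 2459.8 and 2353 in that labelled Sohlh2 knockout. The wild-type arrays spanned almost the whole range of the other groups, and the log2 fold changes were 0.26 (limma adjusted p = 0.526) and 0.04 (limma adjusted p = 0.942). Probe set 1422537_a_at gave 1886, 2091, 1550.2 and 1791 on the wild-type arrays, 1612, 1906, 1766 and 1629 in the group labelled Sohlh1 knockout, and 1124, 1536, 1606 and 1435 in that labelled Sohlh2 knockout. The Sohlh2 group was low, with every array below the wild-type mean, and overlapped wild type through wild type 5. The log2 fold change in the Sohlh2 comparison was -0.36 (SE 0.123, unadjusted p = 0.0102, limma adjusted p = 0.193), and in the Sohlh1 comparison it was -0.08 (limma adjusted p = 0.815). The third probe set, 1453596_at, was dim, at 6.70 to 85.3.

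Id3 was measured by 1 probe set, 1416630_at. It gave 2764, 2054, 1393 and 1687 on the wild-type arrays, 2712, 2468, 2593 and 1682 in the group labelled Sohlh1 knockout, and 2784, 1804, 2165 and 1826 in that labelled Sohlh2 knockout. The highest arrays of the 3 groups were close to each other, at 2764, 2712 and 2784, and the groups overlapped. The log2 fold changes were 0.28 (limma adjusted p = 0.561) and 0.14 (limma adjusted p = 0.810).

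**Figure D3:**
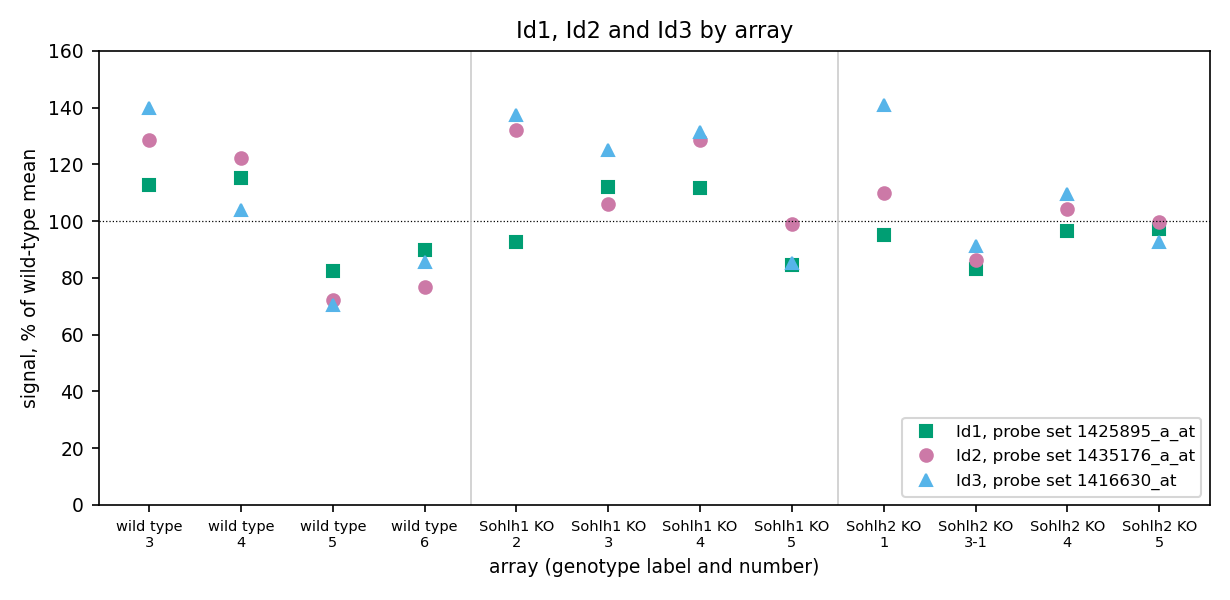
Signal of Id1 (squares), Id2 (circles) and Id3 (triangles), each by its brightest probe set, as a percentage of that probe set's wild-type mean (vertical axis, dotted line at 100) on each array (horizontal axis). Within the wild-type group arrays 5 and 6 lie below 100 for all 3 genes and array 3 lies above it.

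The brightest probe sets of Id2 and Id3 were high and low on the same arrays, which the other Id2 probe sets did not share. Over the 12 arrays 1435176_a_at of Id2 and 1416630_at of Id3 had a Pearson correlation of 0.856 and a Spearman correlation of 0.867 (permutation p = 0.00034 and 0.00045, Benjamini-Hochberg adjusted p = 0.0051 and 0.00675 over the 15 pairs of the 6 genes other than Id4). Pearson's value was 0.744 without the 2 arrays farthest from the median of Id2, wild type 5 and 6, 0.845 with each array set against its group's mean and 0.870 when the 2 arrays of high 3' to 5' ratio were left out. As a description, the correlation with Id3 was -0.0114 for Id2 1422537_a_at (0.0629 within groups) and -0.0836 for the dim 1453596_at. The brightest probe set of Tcf12, an E protein, 1427670_a_at, varied with Id2 1435176_a_at (Pearson 0.771, Spearman 0.776, permutation test, adjusted p = 0.0259 and 0.0331), and this value was 0.625 without the 2 farthest arrays. Id1 with Id2 (0.726) and Tcf12 with Id3 (0.697) passed by Pearson's correlation, with adjusted permutation p = 0.0408 and 0.0474, and missed by Spearman's, with 0.0676 for both. The value of Tcf12 with Id3 was 0.552 when the 2 arrays of high 3' to 5' ratio were left out. The other bright Tcf12 probe set, 1421908_a_at, ran the other way, with descriptive correlations of -0.40 with Id2 1435176_a_at, -0.606 with Id3 and -0.74 with 1427670_a_at. The Tcf12 relations therefore hold for 1427670_a_at and not for both bright probe sets of the gene. As a description, Id1 had correlations of 0.529 with Id2 1422537_a_at and 0.354 with the dim 1453596_at. Id1 with Id3 (0.658, adjusted permutation p = 0.0712) and the 10 other pairs (0.738 or above) did not pass. In wild type the median of all signals was 80.5, 81.6, 85.1 and 90.7 on arrays 3, 4, 5 and 6, higher on the 2 arrays where these genes were low, and its part in the correlations was not tested. Id4 was left out here because its groups stood apart.

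Of the E proteins, Tcf3 gave the lowest unadjusted p, and its probe sets disagreed. Tcf3 encodes the E2A proteins. The brightest probe set, 1426297_at, varied little: it gave 1891, 1983, 1809.9 and 1889 on the wild-type arrays, 1903, 1971, 2144 and 1903 in the group labelled Sohlh1 knockout, and 1941, 2301, 1739.8 and 1960.4 in that labelled Sohlh2 knockout. The groups overlapped, with log2 fold changes of 0.06 in both comparisons (limma adjusted p = 0.796 and 0.820) and a 95% interval of -0.136 to 0.262 in the Sohlh1 comparison. Probe set 1427764_a_at gave 965, 1033, 1678 and 1104 on the wild-type arrays, 678, 880.4, 855 and 603 in the group labelled Sohlh1 knockout, and 720.5, 1052, 989 and 813 in that labelled Sohlh2 knockout. Every array of the Sohlh1 group lay below every wild-type array, which was true in that direction of 6.08% of all probe sets tested and of 1 of these 21. The log2 fold change was -0.64 (SE 0.180, 95% interval -1.02 to -0.251, unadjusted p = 0.00319, limma adjusted p = 0.0932), which did not pass; it passed in 1 of 29 alternative settings, which left out the array labelled Sohlh2 knockout 1 and gave an adjusted p of 0.0395. In the Sohlh2 comparison it was -0.39 (limma adjusted p = 0.356), with an overlap through the arrays labelled Sohlh2 knockout 3-1 and 4, which lay above wild type 3; no member had all arrays of the Sohlh2 group below wild type, against 4.69% of all probe sets. The third probe set, 1452542_x_at, had means of 252, 243 and 265 in the order wild type, Sohlh1 knockout and Sohlh2 knockout.

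Tcf4, which encodes E2-2, differed by little between groups. Its brightest probe set, 1416723_at, gave 1913, 1492, 1504 and 1604 on the wild-type arrays, 1793, 1856, 1619.7 and 1823 in the group labelled Sohlh1 knockout, and 1606, 2083, 1786 and 1743 in that labelled Sohlh2 knockout. Wild type 3 was above all arrays of the Sohlh1 group, so the groups overlapped, and the log2 fold changes were 0.13 (limma adjusted p = 0.617) and 0.15 (limma adjusted p = 0.583). The other 4 probe sets tested had log2 fold changes from -0.04 to 0.26 in the Sohlh1 comparison and from -0.03 to 0.15 in the Sohlh2 comparison, and their signals lay between 271 and 1817.

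Tcf12, which encodes the E protein HEB, had 2 bright probe sets, with fold changes of opposite sign and none called, and 3 dim ones. Probe set 1427670_a_at gave 4222, 3872, 3446 and 2922 on the wild-type arrays, 4393, 3299, 4037 and 3745 in the group labelled Sohlh1 knockout, and 4387, 3539.9, 3574 and 3400.0 in that labelled Sohlh2 knockout. The groups overlapped, with log2 fold changes of 0.10 (limma adjusted p = 0.746) and 0.05 (limma adjusted p = 0.905). Probe set 1421908_a_at gave 1809, 2335, 2561 and 2872 on the wild-type arrays, 1383, 2295, 1940.4 and 1903 in the group labelled Sohlh1 knockout, and 597, 2000.2, 2241 and 2431 in that labelled Sohlh2 knockout. The array labelled Sohlh2 knockout 1 stood far below the rest, and the log2 fold changes were -0.35 (limma adjusted p = 0.675) and -0.56 (limma adjusted p = 0.509). When the array labelled Sohlh2 knockout 1 was left out, the value in the Sohlh2 comparison was -0.0904 for 1421908_a_at and -0.0318 for 1427670_a_at, so the signs no longer differed there. The 3 dim probe sets, 1439209_at, 1446294_at and 1439619_at, lay between 35.7 and 191.

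**Figure D4:**
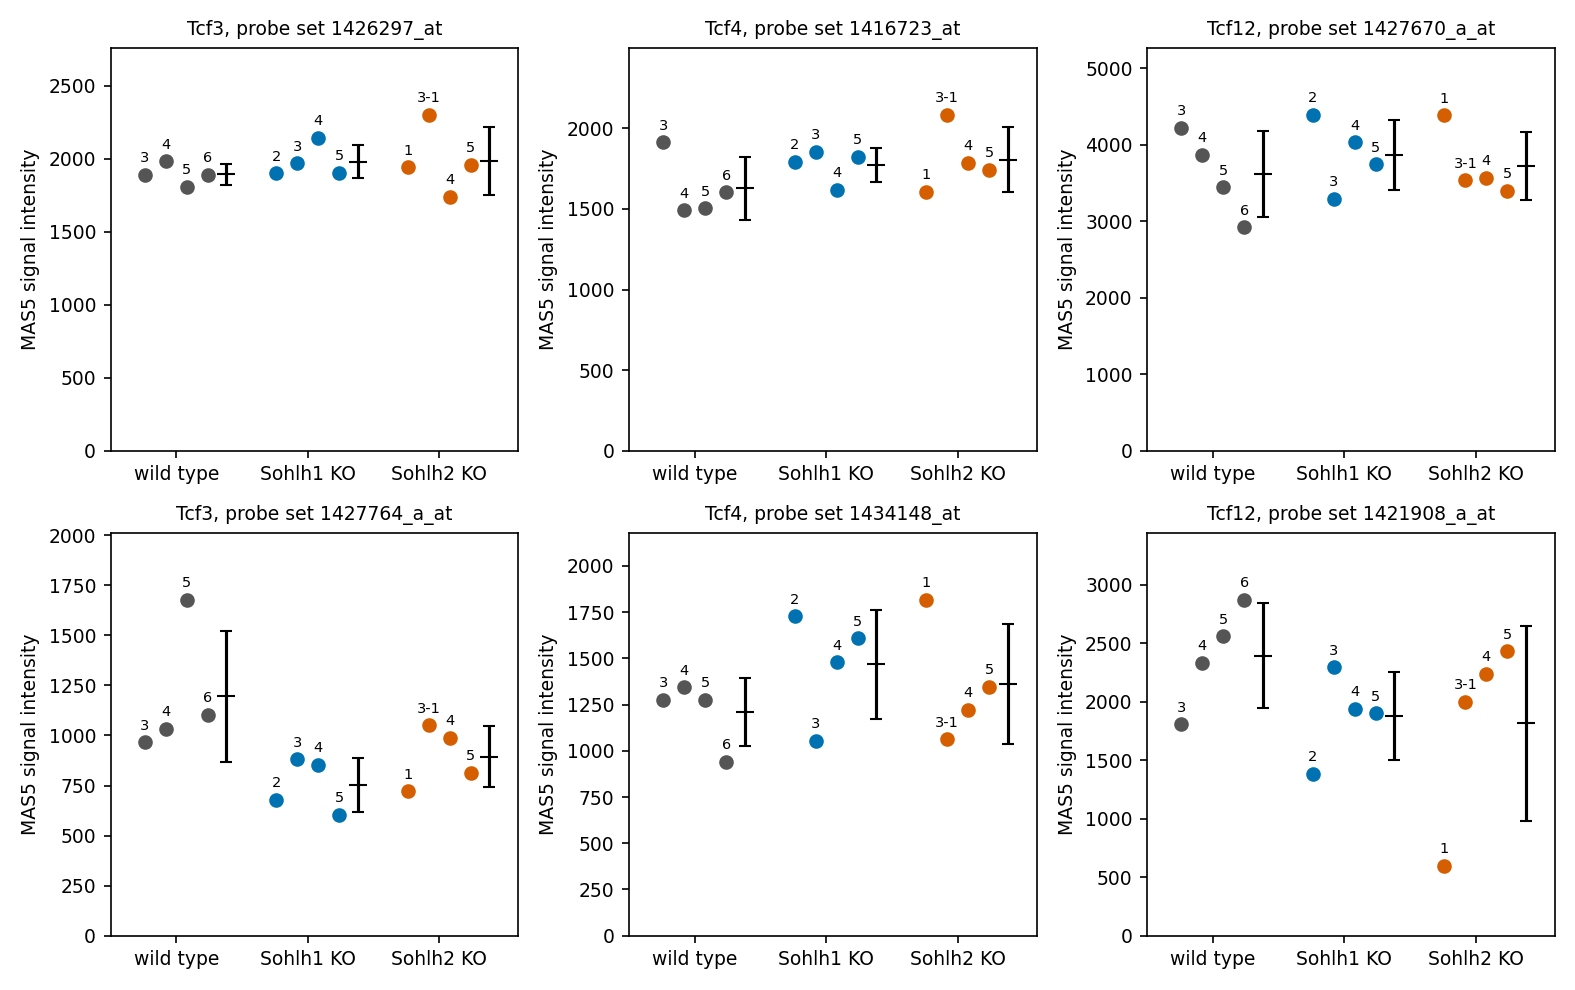
MAS5 signal intensity (vertical axis, linear, from 0) of 2 probe sets each of Tcf3, Tcf4 and Tcf12 on each array, with array numbers; bars give the mean and SD of the 4 arrays of a group. The arrays numbered 2 in the Sohlh1 group and 1 in the Sohlh2 group lie lowest for 1421908_a_at (1383 and 597) and highest for 1427670_a_at (4393 and 4387).

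The 2 arrays of high 3' to 5' ratio stood outside the range of the other 10 arrays together for 5 of the 21 probe sets (23.8%), against 21.1% of all 28694 tested. They were both below the rest for 1421908_a_at of Tcf12 (1383 and 597, others 1809 to 2872) and 1424089_a_at of Tcf4 (648 and 639, others 750.3 to 1087). They were both above the rest for 1427670_a_at of Tcf12 (4393 and 4387, others 2922 to 4222), 1434148_at of Tcf4 (1727 and 1817, others 942 to 1609) and 1450928_at of Id4 (358 and 388, others 173 to 339). The array labelled Sohlh2 knockout 1 alone was the lowest of the 12 for 6 of the 21 probe sets, against 19.7% of all, and the highest for 3, against 16.0% of all. The part of RNA integrity in the differences between probe sets of 1 gene was not tested. For 1423259_at of Id4 these 2 arrays, at 1498 and 1230.5, lay within the range of the other arrays, which spans wild type and knockouts. Each was the lowest array of its labelled group, and the part of RNA integrity in this was not tested.

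Between the knockouts no probe set was called among the 21, nor among all 28694 (0%); at an unadjusted p under 0.05 there was 1 of 21, against 2.67% of all (767 probe sets). For 1423259_at of Id4 the difference, Sohlh2 knockout minus Sohlh1 knockout, was -0.0071 on the log2 scale (95% interval -0.282 to 0.267, limma adjusted p = 1), and for 1423260_at it was 0.17 (95% interval -0.106 to 0.446). The probe set with the small unadjusted p was 1422537_a_at of Id2, whose 4 arrays in the Sohlh2 group, at 1124 to 1606, all lay below those of the Sohlh1 group, at 1612 to 1906. Its difference was -0.29 (95% interval -0.547 to -0.0232, unadjusted p = 0.0349, limma adjusted p = 1), and groups apart in this direction were found for 0.917% of all probe sets, and in the other direction for 0.979% of all and none of the 21. Both of the arrays that went against their labels enter this comparison, and without them 9 of all probe sets were called and none of the 21.

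Among dimerisation partners of the E proteins, Ascl2 and Neurog3 fell in both knockouts. Figla and the targeted gene Sohlh1 passed the threshold in the Sohlh1 comparison and, with all arrays kept, missed it in the Sohlh2 comparison. No list gene was called between the knockouts. Class II basic helix-loop-helix factors are the tissue-restricted partners, and lists are counted here with 1 probe set per gene. Of 43 such genes 41 were named on the array and 23 were tested, of which 4 fell and 0 rose in the Sohlh1 comparison, against 1.83% and 1.06% of 13702 genes. They were the targeted gene Sohlh1 (log2 fold change -3.12, limma adjusted p = 0.0118), Ascl2, Neurog3 and Figla. Sohlh1 is the gene knocked out in this group, so its fall was set by the design and is no result about partners. Ascl2, a basic helix-loop-helix factor best known from trophoblast and intestinal stem cells and read here by an _s_at probe set, a kind whose probes can match several transcripts, went from 444 ± 62.7 in wild type to 166 ± 46.5 (-1.36, limma adjusted p = 0.00101). Neurog3, known as a marker of undifferentiated spermatogonia, went from 351 ± 33.2 to 148 ± 35.1 (-1.19, limma adjusted p = 0.00146). Figla, a factor known for its part in the oocyte, went from 276 ± 52.3 to 117 ± 33.5 (-1.17, limma adjusted p = 0.0142), a call lost without wild type 5 or wild type 6 (adjusted p up to 0.0630).

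In the Sohlh2 comparison 2 of the 23 partners fell and 0 rose, against 1.28% and 0.898% of all genes. Ascl2 went to 192 ± 29.5 (-1.15, limma adjusted p = 0.00457) and Neurog3 to 170.2 ± 15.7 (-0.98, limma adjusted p = 0.00719), and Figla had a value of -0.87 (limma adjusted p = 0.0696). The count was 4 of 23 once the array labelled Sohlh2 knockout 1 was left out, with Figla at -0.98 (limma adjusted p = 0.0408). Both targeted genes are among the 23, so the count without that array can hold a targeted gene. Sohlh2 is the gene knocked out in this group, so a fall of it is set by the design and is no result about partners. With all arrays Sohlh2 itself was not called in this comparison (-2.18, limma adjusted p = 0.309), with a signal of 1847 on the array labelled Sohlh2 knockout 1. Sohlh1 was at -1.66 (limma adjusted p = 0.202) and was called in 3 of 31 alternative settings. The median log2 fold change of the list was 0.0903 in the Sohlh1 comparison and 0.0015 in the Sohlh2 comparison, and that of all genes was 0.0332 and 0.0225.

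Other lists held genes that set the level or action of Id and E proteins, and their counts stand against 1.83% fallen and 1.06% risen of all genes in the Sohlh1 comparison and 1.28% and 0.898% in the Sohlh2 comparison. Of 12 tested genes for E protein cofactors and Id turnover, 1 fell in each comparison and 0 rose, with medians of 0.0441 and -0.0786. This was Lmo1, a LIM-only protein of the family that bridges basic helix-loop-helix dimers to other factors, which went from 445 ± 101 in wild type to 103 ± 36.8 in the Sohlh1 knockout (-2.0, limma adjusted p = 0.000328) and 117 ± 16.8 in the Sohlh2 knockout (-1.80, limma adjusted p = 0.00081). Of 24 tested genes of the BMP pathway, which were ligands, receptors, Smads and antagonists, 1 fell in each comparison and 0 rose, with medians of 0.114 and 0.0461. This was the ligand Bmp7, which went from 372 ± 69.1 to 141 ± 32.4 (-1.32, limma adjusted p = 0.000986) and 158 ± 4.65 (-1.14, limma adjusted p = 0.00374). Of 9 tested genes of the HES and HEY family, which are also basic helix-loop-helix factors, limma called 0 in either comparison. At an unadjusted p under 0.05 there were 1 and 2, and the medians were -0.0929 and -0.159.

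Signals of marker lists for germ cells and somatic cells are given as values beside the Id4 result. They do not measure cell content, because fewer cells cannot be told apart from less RNA per cell. The lists were also chosen with earlier results of these data known. Of 7 tested markers of differentiating spermatogonia 4 fell in both comparisons, which were the stem cell factor receptor Kit (-1.92 and -1.95), the doublesex-related factor Dmrtb1 (-2.51 and -2.21), the retinoic acid-binding protein Crabp1 (-2.47 and -2.22) and the homeobox gene Esx1 (-2.13 and -2.03), each with a limma adjusted p under 0.05, with list medians of -1.92 and -1.95. The summed signal of all 7 markers, of which Ccnd2 (6788 on average in wild type) and Stra8 (4602) contributed most and neither was called, was 16570 to 19350 in wild type, 10760 to 11360 in the Sohlh1 group and 11050 to 13730 in the Sohlh2 group. Of 10 tested markers of undifferentiated spermatogonia 1 rose in both comparisons, Gfra1, the receptor for the growth factor GDNF (0.97 and 1.01, limma adjusted p = 0.00287 and 0.00261), and with the mean over its probe sets neither call remained (adjusted p = 0.420 and 0.365). The list medians were 0.277 and 0.310, and the summed signal over 11 genes was 6798 to 7505 in wild type, 6637 to 9062 in the Sohlh1 group and 7859 to 9138 in the Sohlh2 group. Of 7 markers of germ cells at any stage 1 rose in both, the germ cell kinase Stk31 (0.50 and 0.55, limma adjusted p = 0.0110 and 0.00681), with medians of 0.0133 and -0.0312 and sums of 25800 to 28070, 24360 to 28490 and 25370 to 28340. Dazl (12280 on average in wild type) contributed most to the sums of these germ cell markers. Of 10 markers of Sertoli cells, the somatic cells that nurse the germ cells, limma called 0 in each comparison, with 1 at an unadjusted p under 0.05 in each. The sums of the Sertoli markers were 64310 to 73090, 72980 to 80190 and 68570 to 76470. Clu (34170 on average in wild type) and Inha (12820) contributed most to them, and neither was called. For the lists of Leydig, peritubular myoid, endothelial, macrophage, erythroid and adipose genes limma also called 0. In each, 0 to 2 were at an unadjusted p under 0.05. The numbers tested were 4, 6, 7, 7, 1 and 1 in that order, so the erythroid and adipose lists rest on 1 gene each. Over all genes 1.83% fell and 1.06% rose in the Sohlh1 comparison, and 1.28% and 0.898% in the Sohlh2 comparison. At an unadjusted limma p under 0.05 there were 6 and 5 of the 7 markers of differentiating spermatogonia. There were 2 and 4 of the 10 of undifferentiated spermatogonia, and 2 and 1 of the 7 of germ cells at any stage. The shares over all probe sets tested were 14.9% and 13.5%. No marker of any list was listed at 0. The part of the mix of cells in the Id4 result was not tested.

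The genes whose pattern was most like that of each member were named by Pearson correlation of log2 values over the 12 arrays, among 13022 other genes, as a description. For Id4 they were Tcf24 (0.965), Tdp2 (0.946) and Asz1 (0.945), and set against group means these values were 0.786, 0.834 and 0.631. For Id1 they were Ier2 (0.860), Unc45a (0.839) and Aldh1a2 (0.832). For Id2 they were Carnmt1 (0.923), Sall2 (0.907) and Dcaf12l1 (0.905), and for Id3 Dctn6 (0.939), Pgpep1 (0.923) and Tox4 (0.902). For the E proteins they were Mirg (0.851), Igfbp3 (0.83) and Ptms (0.827) with Tcf3, Mapk13 (0.909), Necap2 (0.881) and Rsrc1 (0.879) with Tcf4, and Ankrd10 (0.964), Sh3bgrl (0.961) and Rnpc3 (0.954) with Tcf12. These values share the arrays and their scaling. The 3 genes of Id4 lost most when set against group means, while the values of the 3 genes of Tcf12 went to 0.961 or above.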

How the data were processed

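The authors' deposited values are signal intensities on a linear scale from Affymetrix arrays, and the submitters' processing notes name MAS5 and GCOS as the tools; the sources used here give neither version nor scaling settings. Per the labels' protocols, RNA was labelled from an oligo(dT) primer, so signals come mostly from the 3' ends of transcripts. Each p-value rests on the spread between pools of 3 testes, and 4 arrays a group limit the precision.

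The offset of 14.2 and the filter of 48.6 are percentiles (20 and 40) of all values that are not controls. One limma model (version 3.58.1, R 4.3.3) with genotype as its only term was fitted to the log2 values of all 12 arrays, with a trended eBayes prior and two-sided tests. Benjamini-Hochberg adjustment ran over every probe set tested. The fit was also run on simulated data with independent normal noise for each probe set. Those data held no deviation shared across an array, so that run does not check the fit for arrays that deviate as a whole. Of 45037 probe sets 34945 had 1 gene symbol in the platform annotation, 932 several and 9160 none.

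The rule named every probe set of the 7 genes, the targeted genes, up to 4 changed genes per list and comparison, and 3 genes most like each member. Members and lists were chosen with earlier results of these data known. Alternatives changed the offset, normalization, filter, probe sets, variance model, replicate block, threshold and arrays; their use on list genes and list counts was added after seeing the data. Promoter windows came from RefSeq, with none printed for Id1 or Tcf4.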

Additional observations from a re-analysis of the deposited data

Results flagged for a closer look

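Of 66 groups of 4 arrays (22 probe sets in 3 groups), 5 held 1 array far from the other 3 by Dixon's test at the 95% level, and chance gives about 1 in 20 groups. In wild type, array 6 was low for 1434148_at of Tcf4, at 941.9, and array 4 was high for 1439209_at of Tcf12, at 186.8. In the Sohlh1 group the array labelled Sohlh1 knockout 5 was low for 1439209_at of Tcf12, at 87.5. In the Sohlh2 group the array labelled Sohlh2 knockout 3-1 was low for the Id1 probe set 1425895_a_at, at 1169, and the array labelled Sohlh2 knockout 4 was low for 1416725_at of Tcf4, a probe set too dim to be tested, at 3.115. None of the 3 Id4 probe sets was among these.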

How the results depend on the processing

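Id4 kept its direction and its call against wild type in all 31 alternatives. These were fits of 1423259_at, except that with the mean of probe sets per gene, which took the mean over the Id4 probe sets. The values were 0.527 to 0.906 in the Sohlh1 comparison (limma adjusted p 0.000183 to 0.0172). They were 0.614 to 0.920 in the Sohlh2 comparison (9.92e-05 to 0.0317). The lowest value in each, 0.527 and 0.614, was that of the mean over the probe sets and not of 1423259_at. The number of probe sets called moved more. For the Sohlh1 comparison (600) it was 375 with the mean of probe sets per gene, 343 with eBayes without trend, 1227 with array weights, 991 when both arrays of high 3' to 5' ratio were dropped, 183 at an adjusted p under 0.01 and 230 to 1238 when each array was left out. For the Sohlh2 comparison (445) it was 293 without trend, 1075 with array weights, 283 with only the groups compared, 747 without the arrays of high ratio, 767 without all 3 doubted arrays, 144 at an adjusted p under 0.01 and 202 to 503 when each array was left out. Between knockouts it was 9 without the 2 arrays that went against their labels, 11 without all 3 and 0 when each array was left out. Replicate numbers were treated as names: same-numbered arrays correlated at -0.117 to 0.101 over 9 pairs, and 2 of 9 arrays correlated best with their own number. With the replicate number as a block (3-1 as its own number) 338 and 98 probe sets were called, and this replicate block ended the calls of Neurog3, Ascl2, Bmp7, Stk31 and Gfra1 in the Sohlh2 comparison (adjusted p 0.0597 to 0.102).

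Changes of sign concerned values that were never called. With the mean of probe sets per gene, Tcf3 was -0.204 and -0.0986 in the 2 comparisons, Id2 -0.123 and -0.284, Tcf12 -0.25 in the Sohlh2 comparison, and Id4 0.0872 between knockouts. With array weights, Tcf12 1427670_a_at was -0.0443 and Id2 1435176_a_at -0.0263 in the Sohlh2 comparison, and Id4 0.0497 between knockouts. With the replicate block, Tcf12 1427670_a_at was -0.0583 in the Sohlh1 comparison and -0.129 or -0.141 in the Sohlh2 comparison, Tcf12 1421908_a_at 0.0033 or 0.0474, Id1 -0.0056, Tcf3 1426297_at -0.042, Id2 1435176_a_at -0.113, Id3 -0.0496, and Id4 0.0842 or 0.0587 between knockouts. Without the doubted arrays, Tcf12 1427670_a_at was -0.0318 and Id2 1435176_a_at -0.0018 in the Sohlh2 comparison, Id2 1422537_a_at 0.0123 in the Sohlh1 comparison, and Id4 0.106, 0.0842 or 0.0862 between knockouts. When each array was left out, Id1 ranged from -0.0791 to 0.0847 in the Sohlh1 comparison, and in the Sohlh2 comparison Tcf3 1426297_at from -0.0112 to 0.122, Tcf12 1427670_a_at from -0.0485 to 0.128, Id2 1435176_a_at from -0.0939 to 0.181 and Id3 from -0.0087 to 0.319; Id4 ranged from -0.0947 to 0.0996 between knockouts. The cause of these shifts was not tested.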
